A study of Mus musculus with 8 samples.

Results

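Collagens are the structural proteins of the connective tissue around and between muscle fibres. Of the 54091 rows of the deposited table, 44 carried a collagen chain gene, chosen by name alone (Col, a type number, a, a chain number). They were grouped as 11 fibrillar collagens, 8 of the basement membrane, 9 FACITs (fibril-associated collagens with interrupted triple helices) and 16 others. RNA was sequenced from white quadriceps, the pale portion of this thigh muscle that is rich in glycolytic fibres, in 8 libraries from male mice aged 11 to 14 weeks after 7 days on a 60% high-fat diet. The 4 control libraries (replicates 1 to 4) had the genotype Loxp/Loxp, and the 4 knockout libraries (replicates 5 to 8) had CKM Cre with Acot2 deleted in muscle. Acot2 encodes a mitochondrial acyl-CoA thioesterase. Ckm is the creatine kinase gene of striated muscle, and Cre under its promoter is meant for muscle fibres rather than the fibroblasts between them. The comparison asks whether collagen transcripts of the muscle differed with loss of the enzyme from fibres. Cre was present in the knockouts alone, so its own effect cannot be told apart from that of the deletion. No source used here says whether each library is its own animal, and the p-values therefore speak only of the spread among these libraries. Values of single libraries are given below in replicate order, 1 to 4 for controls and 5 to 8 for knockouts. In bulk RNA, fewer cells of a type and less RNA per cell cannot be told apart.

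A collagen molecule is built from α chains that wind around each other, with glycine recurring along each chain at a fixed spacing. Fibrillar types I, III and V form the load-bearing fibrils of the endomysium, perimysium and epimysium, and fibroblasts are their main source in muscle. Type IV forms the network of the basement membrane around every fibre and capillary, where types XV and XVIII are also found. FACITs sit on the surface of fibrils, and type VI forms beaded filaments that link the basement membrane to the fibrils. The chains are hydroxylated and folded in the endoplasmic reticulum, trimmed outside the cell and cross-linked.

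Libraries held 55283998 to 109101282 reads, recovered from the deposited values. Acot2 had normalized counts (reads divided by the size factor of the library) of 2179, 3348, 4165 and 2166.2 in the controls against 325, 273, 256 and 354 in the knockouts, and its log2 difference was -3.24 ± 0.20 (SE, n = 4 against 4; limma, adjusted p = 4.72e-06). Every knockout was below every control, the direction that deletion of Acot2 would give. Acot2 was the 1 gene of 15657 tested that passed the threshold, an adjusted p under 0.05. On the first principal component, with 34.5% of the variance, control replicates 3 and 4 lay away from the rest, at 55.2 and 56.1 against -38.6 to 0.561 in the others. Knockout replicate 8 held heart transcripts: the atrial myosin light chain gene Myl7 was at 1124 there and at 0 to 4.14 elsewhere. Markers of skeletal muscle fibres such as Ckm, Acta1 and Myh4 were detected in all 8 libraries.

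Most collagen genes had higher estimates in the knockouts, and none passed the threshold. Of the 44 genes 41 had a mean normalized count of at least 10 and were tested. Of these, 0 passed an adjusted p of 0.05 (limma), against 0.00639% of all genes tested, and 0 passed in voom on the recovered reads. At an adjusted p under 0.1, 3 were higher (limma), against 5.94% of all tested genes. Estimates were above 0 in 35 and below 0 in 6, where 50.3% of all tested genes were above 0 and 49.7% below. The median log2 difference (knockout minus control) was 0.27 over the 41 and 0.00257 over all 15657. At an unadjusted p under 0.05, 9 were higher against a background of 13.6%, and 0 were lower against 13.3%. The 4 and 4 values did not overlap in 3 members, all higher in knockouts, beside 6.06% of all tested genes, and in 0 members was the order the other way, beside 7.06%. The first of these shares is near that of the members. By class, the median was 0.47 for fibrillar (11 of 11 above 0), 0.10 for basement membrane (6 of 8), 0.18 for FACIT (8 of 9) and 0.27 for the other collagens (10 of 13 tested). Differences between the classes were not tested. The overall median was 0.42 without control replicates 3 and 4 and 0.15 without knockout replicate 8. In single libraries, the median deviation of collagen genes from their 8-library means was -0.25, -0.38, -0.02 and 0.11 in the controls. In the knockouts it was 0.12, -0.25, 0.33 and 0.41, so the groups overlapped, and the SD between replicates was 0.26. For fibrillar genes this SD was 0.33, and control replicate 4 (0.10) lay above knockout replicates 5 (0.025) and 6 (-0.25). Genes of 1 library share its spread, so genes above 0 are not independent results.

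**Figure D1:**
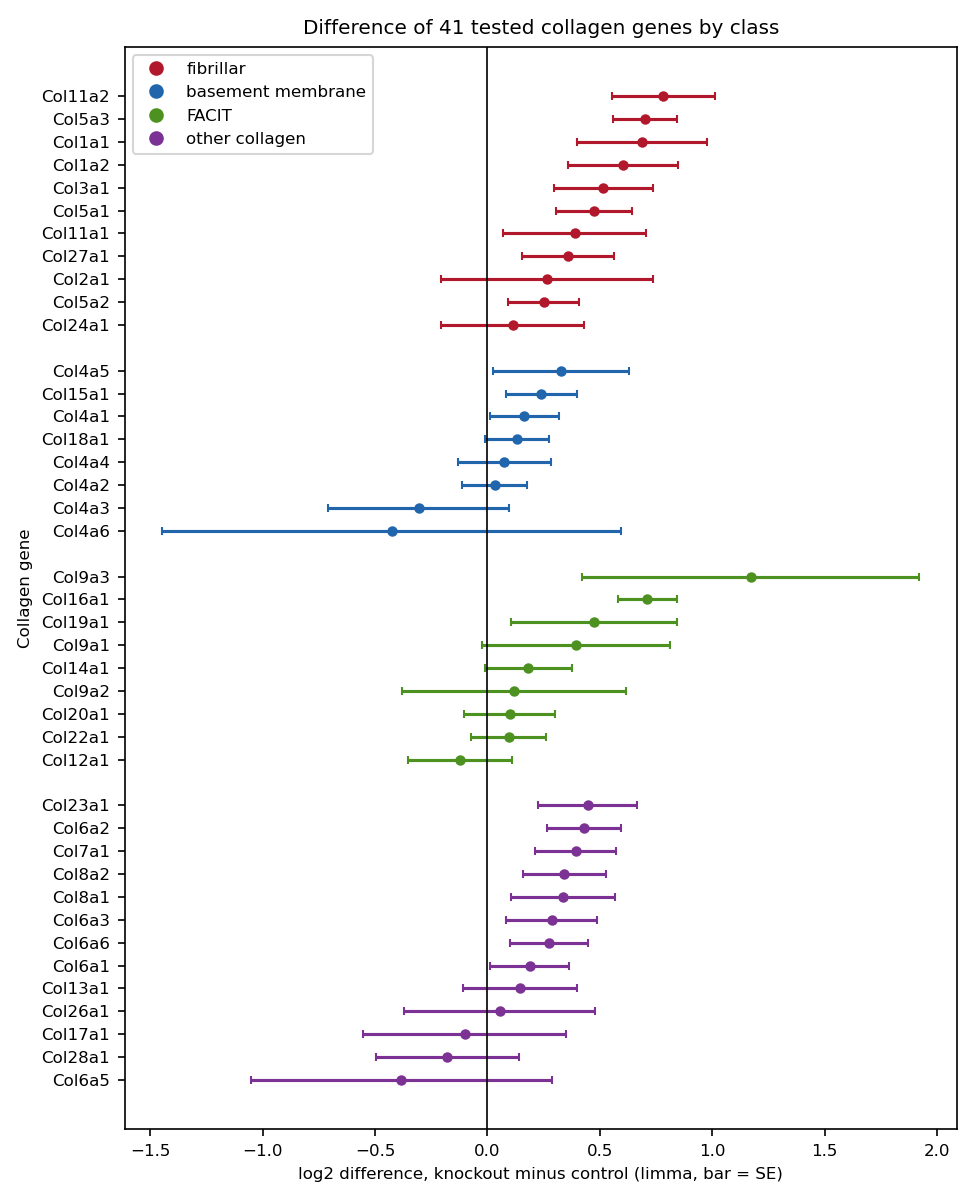
Log2 difference between knockout and control (x axis, limma estimate; bars are the SE) for the 41 tested collagen genes (y axis), coloured by class. All 11 fibrillar points lie above 0, and the 8 basement membrane points lie on both sides of 0 with a median of 0.10.

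Levels between genes are compared per kb of the longest protein-coding transcript, and the order of genes depends on this choice of length. Col1a2, Col3a1 and Col1a1, the chains of types I and III, made up 57.2% of the collagen signal per kb over the 8 libraries. Col1a2 was highest, at 5277 ± 975 in controls and 8447 ± 3495 in knockouts (normalized count per kb, mean ± SD, n = 4 each). Next came Col3a1, at 3960.5 ± 744 in controls and 5881 ± 2188 in knockouts, and Col1a1, at 2875 ± 898 in controls and 4799 ± 2002 in knockouts. The basement membrane chains Col4a1 and Col4a2 followed, at 2278 ± 249.3 in controls and 2592 ± 611 in knockouts for Col4a1 and 1543 ± 149.9 in controls and 1599.5 ± 333 in knockouts for Col4a2. The 9 highest genes, which also include Col6a2, Col6a1, Col5a3 and Col15a1, held 88.4%. Neighbours in this order overlapped in their ranges: Col1a2 exceeded Col3a1 in 7 of 8 libraries, and Col4a2 exceeded Col6a2 in 5 of 8.

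By class, fibrillar genes held 64.2% of the signal per kb, basement membrane genes 18.5%, the other collagens 14.4% and FACITs 2.92%. At the low end, the cartilage collagens Col2a1, Col9a1, Col9a2 and Col9a3, the epidermal anchor Col17a1 and the minor chains Col4a6 and Col6a5 were among the lowest in mean level. The 3 genes too low to test were Col10a1, a collagen of growth-plate cartilage, Col25a1 and Col6a4. Col10a1 had 1, 0, 0 and 6 recovered reads in the controls and 1, 0, 0 and 0 in the knockouts. Col6a4 had 4, 6, 0 and 3 reads in controls and 0 in each knockout. Col25a1 had 0, 11, 13 and 42 in controls and 7, 1, 5 and 4 in knockouts, with its highest value in control replicate 4. A gene at 0 reads in a library could hold up to 3 reads there, a normalized count of 2.04 to 3.87, so no difference was readable at these levels. This covers counting error only.

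**Figure D2:**
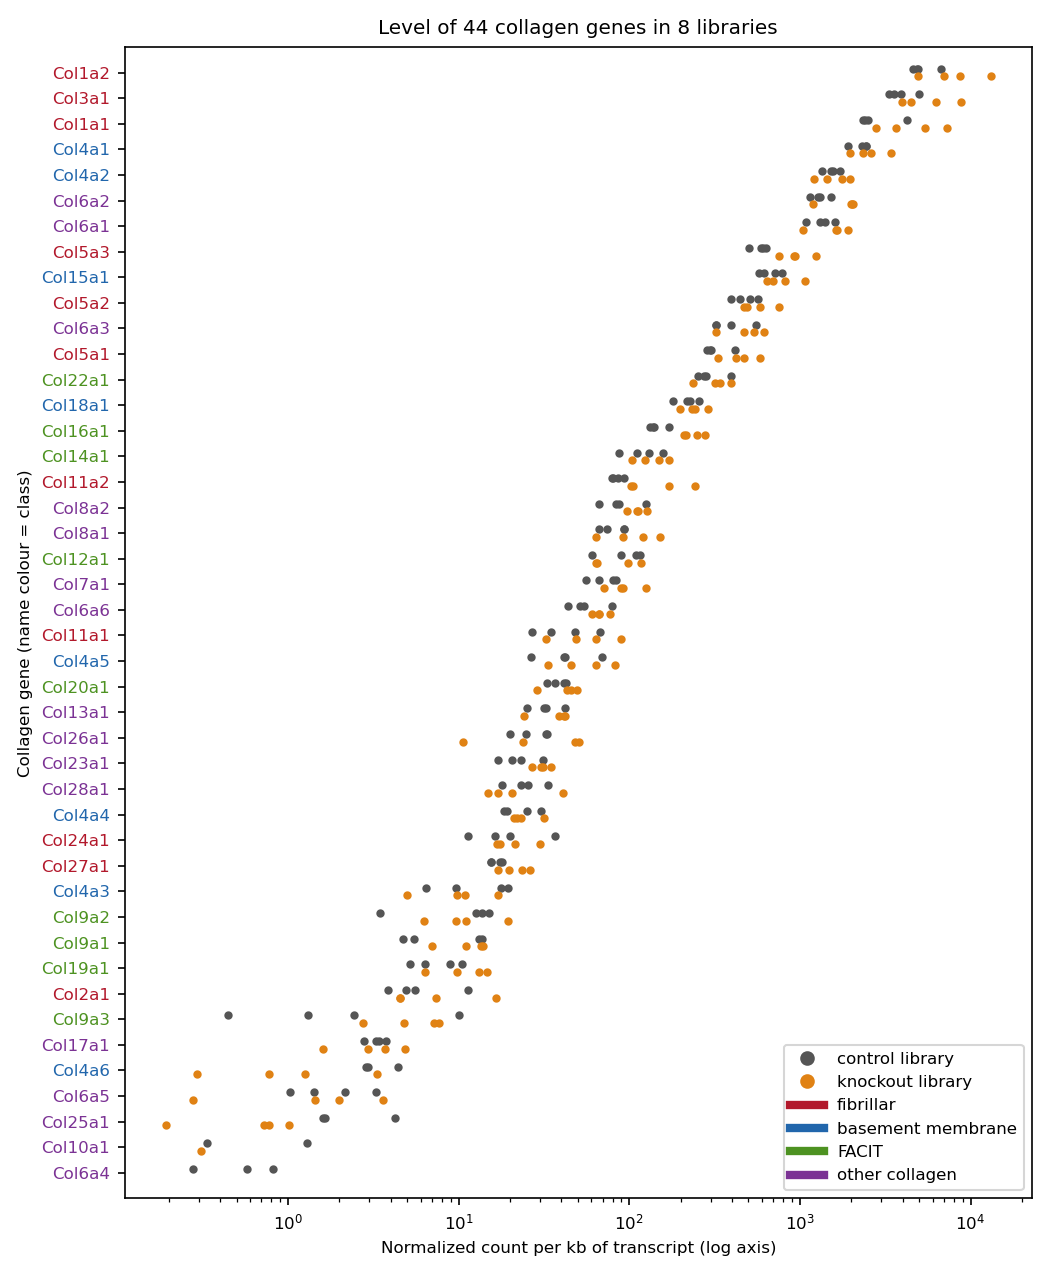
Normalized count per kb of transcript (x axis, log scale) of the 44 collagen genes (y axis, ordered by mean, names coloured by class) in each of 4 control and 4 knockout libraries; values of 0 are not drawn. The chains of types I and III stand at the top and Col6a4 at the bottom, and neighbours overlap.

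Among fibrillar genes, the type I chains had high values in knockout replicate 7. Col1a1, on chromosome 11 from 94936224 to 94953042 of GRCm38, encodes the α1 chain of type I, the main collagen of tendon and muscle fascia. Its normalized counts were 14962, 14292, 13935 and 25012 in the controls against 21809, 16504, 43359.7 and 32168 in the knockouts. The lowest knockout, replicate 6, lay below the highest control, replicate 4, so the groups overlapped. The means were 17050.1 ± 5325 in controls and 28460.2 ± 11874 in knockouts (SD, n = 4 each), and the log2 difference was 0.69 ± 0.29 (SE, n = 4 against 4; limma, adjusted p = 0.159). Without knockout replicate 7 the log2 difference of Col1a1 was 0.45 (limma, adjusted p = 0.292). Its partner Col1a2, the α2 chain of type I on chromosome 6 from 4504814 to 4541544, had 26011, 24455, 26479 and 35936 in the controls against 37561, 26261, 70278 and 46607 in the knockouts. Knockout replicate 7 was again the highest and knockout replicate 6 lay within the control range. Col1a2 had a log2 difference of 0.60 ± 0.25 (SE, n = 4 against 4; limma, adjusted p = 0.145), or 0.36 without knockout replicate 7.

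Col3a1 encodes the chain of type III, which forms the fine reticular fibrils of the endomysium. It lies on chromosome 1 from 45311538 to 45349706, and its normalized counts were 18577, 19928, 21691 and 27948 in the controls against 24922, 21936, 35129 and 48904 in the knockouts. Knockout replicate 8 was highest, and knockout replicates 5 and 6 lay within the control range. The log2 difference was 0.52 ± 0.22 (SE, n = 4 against 4; limma, adjusted p = 0.156). Without knockout replicate 8, the library with heart transcripts, it was 0.30 (limma, adjusted p = 0.364). Without control replicates 3 and 4 it was 0.69 (limma, adjusted p = 0.673).

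Col5a3, Col11a2 and the FACIT gene Col16a1 were the 3 tested members whose groups did not overlap. Col5a3 encodes the α3 chain of type V, a minor fibril component that nucleates and limits fibril width together with type I. It lies on chromosome 9 from 20770050 to 20815067, and its normalized counts were 3634, 3875, 3083 and 3714 in the controls against 5645, 4607, 5703 and 7575 in the knockouts. Every knockout value was above every control value. The means were 3577 ± 344 in controls and 5882 ± 1236 in knockouts (SD, n = 4 each), and the log2 difference was 0.70 ± 0.14 (SE, n = 4 against 4; limma, adjusted p = 0.0796). Col11a2, on chromosome 17 from 34039437 to 34066685, encodes a type XI chain that is best known from cartilage fibrils. It had 565, 478, 483 and 523 in the controls against 636, 620.4, 1461 and 1040.1 in the knockouts, with knockout replicates 7 and 8 far above the other 2 knockouts. Its log2 difference was 0.78 ± 0.23 (SE, n = 4 against 4; limma, adjusted p = 0.081), and 0.54 without knockout replicate 7.

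Col16a1 encodes a FACIT of fibrils and of cell-matrix contacts and lies on chromosome 4 from 130047840 to 130099283. Its normalized counts were 885, 685, 716 and 726 in the controls against 1118, 1085, 1439 and 1305 in the knockouts. The control values lay close together and all below the knockouts. The means were 753 ± 89.8 in controls and 1237 ± 166 in knockouts (SD, n = 4 each), a log2 difference of 0.71 ± 0.13 (SE, n = 4 against 4; limma, adjusted p = 0.0796). Col5a3 and Col16a1 were past the threshold in 3 alternatives: without control replicate 1 (adjusted p = 0.0337 and 0.0337), without control replicate 2 (adjusted p = 0.022 and 0.0228) and with sample quality weights (adjusted p = 0.0367 and 0.0367), all by limma. In these fits 5.53%, 6.54% and 3.79% of all tested genes were called higher, and the first 2 keep the libraries that stand apart and drop others of the same group. Without control replicates 3 and 4, the log2 differences were 0.63 for Col5a3 and 0.66 for Col16a1 (limma, adjusted p = 0.547 and 0.498). Over 21 alternatives the log2 difference ran from 0.57 to 0.81 for Col5a3, 0.64 to 0.79 for Col16a1 and 0.54 to 0.95 for Col11a2.

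The stretches before the start sites of these 3 genes are shown beside that of Col3a1, the most abundant gene with such a window free of coding-gene exons, because the 3 were the members without overlap. The Col16a1 window overlaps an exon of the noncoding antisense gene Gm12963. Each is the 250 bases before the RefSeq start (GRCm38.p6), 5′ to 3′ along the gene, at chr9:20815068-20815317 on the minus strand, chr17:34038888-34039137 on the plus strand, chr4:130047590-130047839 on the plus strand and chr1:45311288-45311537 on the plus strand. The Col11a2 window does not reach the start of 34039437 given above, which comes from GENCODE and differs from the RefSeq start. Capitals mark 3 promoter motifs on either strand: CCAAT, the letters bound by NF-Y (ATTGG in reverse), GGGCGG, a GC box bound by Sp1 (CCGCCC in reverse), and TATAAA, the letters of a TATA box (TTTATA in reverse).
Col5a3: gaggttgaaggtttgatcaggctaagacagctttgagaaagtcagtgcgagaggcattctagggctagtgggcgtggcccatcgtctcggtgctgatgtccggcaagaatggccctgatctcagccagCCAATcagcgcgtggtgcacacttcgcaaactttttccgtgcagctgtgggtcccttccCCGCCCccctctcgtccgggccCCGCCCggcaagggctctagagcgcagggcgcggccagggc
Col11a2: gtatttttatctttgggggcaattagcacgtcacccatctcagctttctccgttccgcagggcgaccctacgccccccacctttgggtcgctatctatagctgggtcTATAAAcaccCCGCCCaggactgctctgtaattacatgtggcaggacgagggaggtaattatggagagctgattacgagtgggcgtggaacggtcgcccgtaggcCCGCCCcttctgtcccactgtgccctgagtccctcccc
Col16a1: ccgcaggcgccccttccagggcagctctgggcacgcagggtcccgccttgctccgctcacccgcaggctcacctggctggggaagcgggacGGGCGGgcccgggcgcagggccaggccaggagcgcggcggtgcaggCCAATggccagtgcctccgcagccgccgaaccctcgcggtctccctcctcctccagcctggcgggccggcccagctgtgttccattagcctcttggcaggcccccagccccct
Col3a1: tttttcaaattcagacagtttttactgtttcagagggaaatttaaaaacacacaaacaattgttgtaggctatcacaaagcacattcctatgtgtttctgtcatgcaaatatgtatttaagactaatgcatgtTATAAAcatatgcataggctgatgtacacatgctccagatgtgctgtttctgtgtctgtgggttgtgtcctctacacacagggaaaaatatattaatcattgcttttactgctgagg

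Col5a3 held 1 CCAAT and 2 GGGCGG motifs, Col11a2 2 GGGCGG and 1 TATAAA, Col16a1 1 of each of CCAAT and GGGCGG, and Col3a1 1 TATAAA. Over 32851 such windows of all genes, 33.8% held CCAAT, 32.7% GGGCGG and 12.4% TATAAA. Of 38 windows of 35 collagen genes matched by symbol, 34.2%, 57.9% and 13.2% did. Motif matches describe these letters and not a bound site, and the difference in share for GGGCGG was not tested.

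The other 6 fibrillar genes had log2 differences of 0.11 (Col24a1) to 0.47 (Col5a1), and each overlapped between groups (limma, adjusted p = 0.107 for Col5a1, up to 0.842 for Col24a1). Col5a1 and Col5a2, the chains of the common form of type V, had log2 differences of 0.47 ± 0.17 and 0.25 ± 0.16 (SE), values chosen after they were seen. Counted together, the 11 fibrillar genes took 0.0935, 0.0976, 0.102 and 0.137% of all normalized counts in the controls. They took 0.135, 0.107, 0.227 and 0.206% in the knockouts. Knockout replicates 7 and 8 were above all controls, and knockout replicates 5 and 6 lay within the control range.

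**Figure D3:**
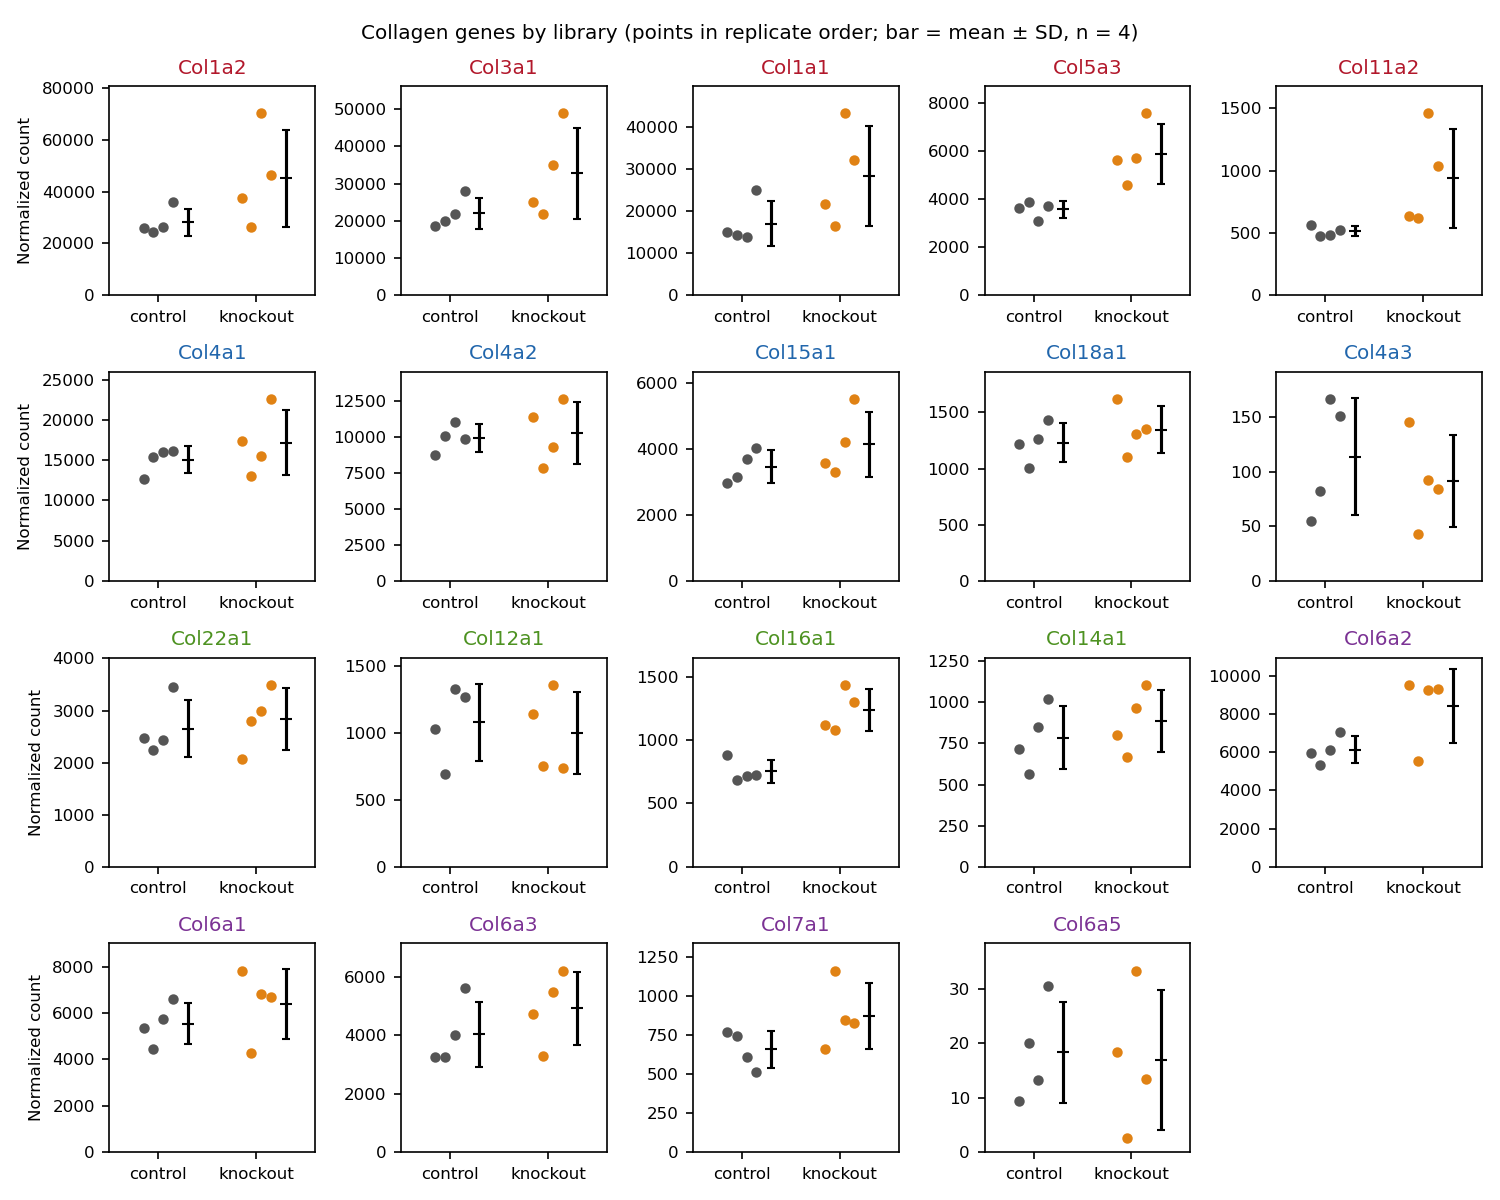
Normalized counts (y axes, from 0) of 19 collagen genes in 4 control and 4 knockout libraries, points in replicate order, with mean and SD beside them; panel titles are coloured by class as in the plot of differences. Col5a3, Col11a2 and Col16a1 are the panels whose groups do not overlap.

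Basement membrane genes had estimates of -0.43 to 0.33, and none of the 8 had an unadjusted p under 0.05. Col4a1 and Col4a2 encode the α1 and α2 chains of the common type IV network. Col4a1 had 12659, 15346, 16077 and 16189.9 in the controls against 17374, 13088, 15511 and 22602 in the knockouts, a log2 difference of 0.16 ± 0.15 (SE, n = 4 against 4; limma, adjusted p = 0.507). Knockout replicates 5 and 8 were above all controls, and knockout replicates 6 and 7 lay within the control range. The log2 difference of Col4a1 was 0.022 without knockout replicate 8, 0.083 without control replicate 1, 0.28 without knockout replicate 6 and 0.27 without control replicates 3 and 4. Col4a2 had 8741, 10121, 11092 and 9855 in the controls against 11434, 7851, 9323 and 12660.0 in the knockouts, and a log2 difference of 0.033 ± 0.14 (SE, n = 4 against 4; limma, adjusted p = 0.901), whose sign turned without control replicate 1 (-0.028), knockout replicate 5 (-0.025) or knockout replicate 8 (-0.073).

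Col15a1, a proteoglycan-like collagen that anchors the basement membrane of fibres and capillaries, had 2974, 3167, 3709.8 and 4046 in the controls against 3582, 3298, 4215 and 5523 in the knockouts, with a log2 difference of 0.24 ± 0.16 (SE, n = 4 against 4; limma, adjusted p = 0.338). It was highest in knockout replicate 8, and its log2 difference was 0.093 without that library and 0.41 without control replicates 3 and 4. Col18a1, whose C-terminal fragment is endostatin, had 1216, 1005, 1266 and 1428 in the controls against 1618, 1105, 1311 and 1353 in the knockouts, with a log2 difference of 0.13 ± 0.14 (SE, n = 4 against 4; limma, adjusted p = 0.573). The log2 difference of Col18a1 was 0.038 without control replicate 2, 0.038 without knockout replicate 5, 0.22 without knockout replicate 6 and 0.21 without control replicate 4, and it was 0.27 without control replicates 3 and 4. Both genes overlapped between groups. Of the minor type IV chains, Col4a3 had the smallest p among members with lower estimates. It had 54.9, 82.4, 167 and 151 in the controls against 145, 42.6, 92.8 and 84.2 in the knockouts, a log2 difference of -0.31 ± 0.40 (SE, n = 4 against 4; limma, adjusted p = 0.649), and its sign turned without knockout replicate 6 (0.0129) or control replicates 3 and 4 (0.31). Col4a4, Col4a5 and Col4a6 had log2 differences of 0.076, 0.33 and -0.43, with SEs of 0.21, 0.30 and 1.02.

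The type IV genes lie in head-to-head pairs, and their levels were unequal within pairs. Col4a1 (minus strand, ending at 11312826) and Col4a2 (plus strand, starting at 11312805) share 22 bases on chromosome 8 in the annotation, and Col4a1 was 1.55 times as high per kb, higher in 8 of 8 libraries. Reads in the shared bases could not be assigned without strand, whose use in counting is not given in the sources used here. Col4a3 and Col4a4 are 71 bases apart on chromosome 1, at 12 and 23.9 per kb, with Col4a3 higher in 1 of 8 libraries. Col4a5 and Col4a6 are 1308 bases apart on chromosome X, and Col4a5 was at 50.7 against 1.99 per kb, higher in 8 of 8. Col3a1 and Col5a2 face each other tail to tail on chromosome 1 with 24614 bases between them, at 4921 and 527 per kb.

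Apart from Col16a1, no FACIT gene had an unadjusted p under 0.05. Col22a1, a FACIT of the myotendinous junction, had 2474, 2241, 2431 and 3457 in the controls against 2073, 2795, 2990.2 and 3494 in the knockouts. Control replicate 4 and knockout replicate 8 were the highest of their groups, and the log2 difference was 0.094 ± 0.17 (SE, n = 4 against 4; limma, adjusted p = 0.744), with the sign turned without knockout replicate 8 (-0.014). Col12a1, which coats fibrils of tendon and fascia, had 1025, 694, 1325 and 1265 in the controls against 1139, 749, 1358 and 735 in the knockouts, and a log2 difference of -0.12 ± 0.23 (SE, n = 4 against 4; limma, adjusted p = 0.763). Its estimate was 0.16 once the trend on transcript length and GC content was removed, and 0.00747 without knockout replicate 8. Col14a1, a fibril-spacing FACIT of fibroblasts, had 717, 562, 848 and 1019 in the controls against 801, 669, 968 and 1107 in the knockouts, and a log2 difference of 0.18 ± 0.19 (SE, n = 4 against 4; limma, adjusted p = 0.564). The log2 difference of Col14a1 was 0.031 without control replicate 2, 0.066 without knockout replicate 8, 0.31 without knockout replicate 6, 0.32 without control replicate 4 and 0.46 without control replicates 3 and 4. The remaining 5 FACITs ran from 0.098 (Col20a1) to 1.17 (Col9a3), and Col9a3 rested on a mean of 14 normalized counts with an SE of 0.75.

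Type VI led the other collagens. Its chains Col6a1, Col6a2 and Col6a3 are the ones mutated in Bethlem and Ullrich muscle disease. Col6a2, on chromosome 10 from 76595762 to 76623630, had 5965, 5357, 6143 and 7075 in the controls against 9547, 5537, 9271 and 9347 in the knockouts. Knockout replicates 5, 7 and 8 were above all controls and knockout replicate 6 was among them. The log2 difference was 0.43 ± 0.17 (SE, n = 4 against 4; limma, adjusted p = 0.126). Col6a1, on chromosome 10 from 76708792 to 76726168, had 5357, 4456, 5753 and 6595 in the controls against 7828, 4269, 6810.2 and 6695 in the knockouts, with knockout replicate 6 the lowest of all 8 libraries, and a log2 difference of 0.19 ± 0.17 (SE, n = 4 against 4; limma, adjusted p = 0.504). Col6a3 had 3258, 3264, 3996 and 5592 in the controls against 4733, 3279, 5455 and 6204 in the knockouts, and a log2 difference of 0.29 ± 0.20 (SE, n = 4 against 4; limma, adjusted p = 0.379). Without knockout replicate 6 the 3 log2 differences were 0.62 for Col6a2, 0.37 for Col6a1 and 0.47 for Col6a3 (limma, adjusted p = 0.122, 0.169 and 0.178). Other omissions lowered them: Col6a3 was at 0.16 without knockout replicate 8, and Col6a1 at 0.079 without knockout replicate 5 and 0.088 without control replicate 2. Without control replicates 3 and 4 they were 0.54 for Col6a2, 0.35 for Col6a1 and 0.55 for Col6a3.

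Col7a1, the anchoring fibril collagen known from skin, had 769, 744, 612 and 516 in the controls against 659, 1163, 847 and 826 in the knockouts. Unlike the type VI genes it was highest in knockout replicate 6, and its log2 difference was 0.39 ± 0.18 (SE, n = 4 against 4; limma, adjusted p = 0.18). Col6a5, at the low end, had 9.5, 20.1, 13.3 and 30.5 in the controls against 18.4, 2.58, 33.4 and 13.4 in the knockouts, a log2 difference of -0.38 ± 0.67 (SE, n = 4 against 4; limma, adjusted p = 0.741), and the sign turned without knockout replicate 6 (0.26). The log2 difference of Col7a1 was 0.25 without knockout replicate 6 and 0.18 without control replicates 3 and 4. The other 8 tested members of this class ran from -0.18 (Col28a1) to 0.45 (Col23a1), and all overlapped between groups.

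Ratios of chains within a library do not depend on its scaling, and 6 of them were compared. Col6a1 and Col6a2 assemble in equal parts, and their ratio of normalized counts was 0.898, 0.832, 0.936 and 0.932 in the controls against 0.82, 0.771, 0.735 and 0.716 in the knockouts. All 4 knockouts were below all 4 controls, with a log2 difference of -0.24 (SD 0.079 and 0.086, n = 4 each). By an exact permutation test (two-sided) p was 0.0286, the lowest value that this number of libraries can give, and the exact permutation p was 0.171 when adjusted over the 6 ratios. The log2 difference stayed between -0.28 and -0.19 over the 10 sets of libraries tried.

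The Col4a1 to Col4a2 ratio was 1.45, 1.52, 1.45 and 1.64 in the controls against 1.52, 1.67, 1.66 and 1.79 in the knockouts, with a log2 difference of 0.13 (exact permutation p = 0.0571, adjusted p = 0.171). Control replicate 4 lay among the knockouts. The type I chains lay in a narrow range of ratios: Col1a1 to Col1a2 was 0.526 to 0.696 in controls and 0.581 to 0.69 in knockouts (log2 difference 0.084, exact permutation p = 0.457). Per length, with transcripts of 5930 and 5348 bases, this was 0.475 to 0.628. All annotated exons together span 6563 bases for Col1a1 and 12426 for Col1a2, so this value depends on the length used. Col3a1 to Col1a1 was 1.12 to 1.56 in controls and 0.81 to 1.52 in knockouts (exact permutation p = 0.514), with both its ends for knockouts set by replicates 7 (low) and 8 (high). Col5a1 to Col5a2 had a log2 difference of 0.22 (exact permutation p = 0.114) and Col15a1 to Col18a1 of 0.11 (exact permutation p = 0.6). The adjusted p was 0.229 for the first and 0.6 for each of the other 3.

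**Figure D4:**
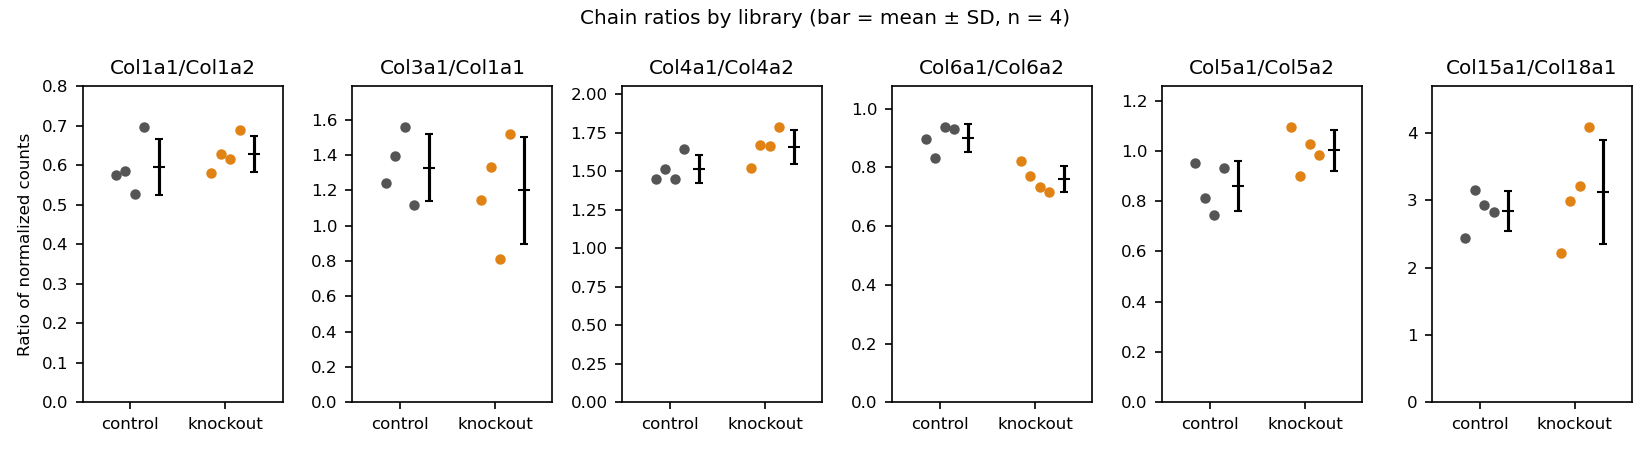
Ratio of normalized counts of 2 chains within a library (y axes, from 0) for 6 pairs, in 4 control and 4 knockout libraries in replicate order; bars are mean and SD. The Col6a1/Col6a2 panel is the 1 panel in which the groups do not overlap.

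Knockout replicates 7 and 8 carried most of the high values. Among the 41 tested genes, the highest of the 8 values fell in knockout replicate 8 for 15 and in knockout replicate 7 for 13, and the lowest in control replicate 2 for 13. Knockout replicate 6 was lowest for 7 and highest for 4. Of the 11 fibrillar genes, 5 were highest in knockout replicate 7 and 5 in knockout replicate 8. All 44 collagens together took 0.159, 0.168, 0.183 and 0.219% of normalized counts in the controls, against 0.224, 0.174, 0.314 and 0.313% in the knockouts. The group ranges overlapped, since knockout replicate 6 lay below control replicates 3 and 4.

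**Figure D5:**
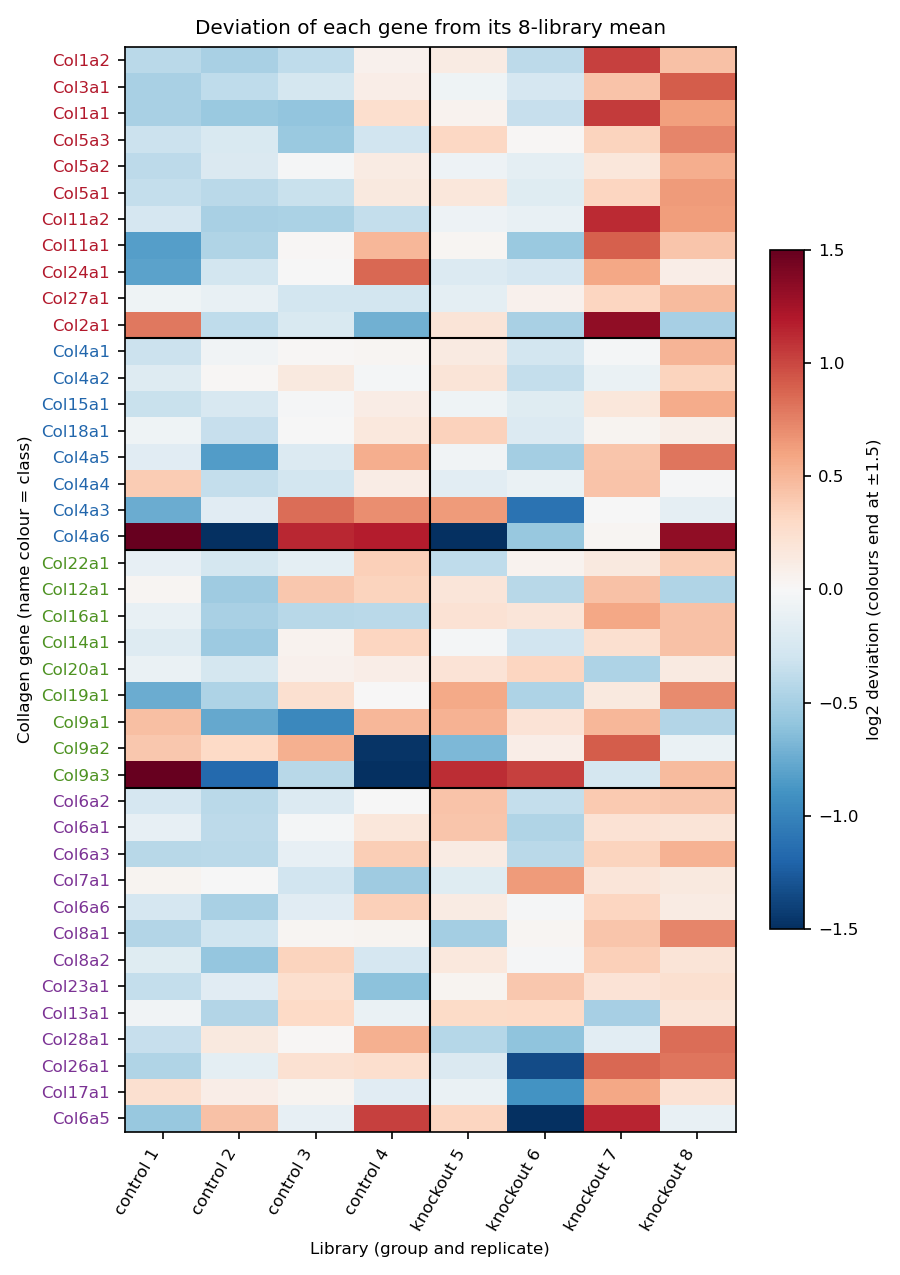
Deviation of log2(normalized count + 1) from the gene's mean over 8 libraries (colour, ending at ±1.5) for the 41 tested collagen genes (listed by class and level) in each library (columns, controls left of the line). Fibrillar genes are mostly red in knockout replicates 7 and 8 and pale or blue in knockout replicate 6.

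Most markers of fibroblasts and tendon had higher estimates as well, and most of those of endothelial, smooth muscle and Schwann cells did not. Of 12 markers of fibroblasts and fibro-adipogenic progenitors (Pdgfra, Dcn, Gsn, Clec3b and others), 11 had higher estimates, 0 passed, and the summed normalized count was 137735 to 183674 in controls and 180050.0 to 218222 in knockouts. Pdgfra, the receptor that defines these cells, had 1756, 1341, 1863 and 1784 in the controls against 1587, 1710.2, 1786 and 1649 in the knockouts, and all 4 knockouts lay within the control range. Gsn was at 76373 to 104808 in controls and 108121 to 122192 in knockouts. Clec3b was at 2370 to 3818 in controls and 4110 to 6433 in knockouts. Pdgfra, Gsn and Clec3b were chosen after their values were seen. Divided by the sum of the 12 markers, Col1a1, Col1a2 and Col3a1 together were at 0.324, 0.408, 0.44 and 0.645 in the controls against 0.427, 0.359, 0.682 and 0.678 in the knockouts, which overlap. Gsn and Dcn outweighed the other markers in this sum, at 104808 and 41536 of 183674 in control replicate 1. The ratio therefore follows mainly these genes and is not collagen per cell. Tendon markers had higher estimates in 7 of 9, with sums of 33523 to 49425 in controls and 35096 to 67246 in knockouts. The tendon gene Tnmd was at 3427 in knockout replicate 7, where Col1a1, Col1a2 and Col11a2 peaked, and at 1109.9 to 1886 in the other 7 libraries.

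Macrophage markers had higher estimates in 10 of 10, with sums of 8478 to 12483 in controls and 12637 to 20052 in knockouts, and white adipocyte markers in 7 of 8, with sums of 9343 to 19995 in controls and 10732 to 27208 in knockouts. Endothelial sums, from cells that also make type IV collagen, were 26350.5 to 29518 in controls and 26397 to 31653 in knockouts, with 4 of 9 higher, and smooth muscle and pericyte sums 41777 to 55289.9 in controls and 39684 to 44917 in knockouts, with 4 of 9 higher. Of the Schwann cell markers 1 of 8 had a higher estimate, and 0 markers of any of these types passed the threshold (limma). Heart marker sums were 10379 in knockout replicate 8 and 795 to 1484 in the others, and of those 8 markers all 6 tested had higher estimates. Myl7 and Nppa were tested only because of knockout replicate 8, where they were at 1124 and 1648. In the other libraries they reached at most 4.14 and 6.11, so the count of 6 is no result about the groups. The cartilage marker Matn1 was at 0 in all 8 libraries, and Acan and Hapln1 were at 0 in some. The part of these cells in the collagen values was not tested.

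Genes that make and fold the chains mostly had higher estimates. In the list of synthesis and folding, 17 of 21 tested genes (of 22 listed) had higher estimates, with a median log2 difference of 0.17. None passed the threshold (limma). An unadjusted p under 0.05 (limma) was found for 4 genes with higher and 2 with lower estimates, beside 13.6% and 13.3% of all tested genes. Serpinh1, the collagen chaperone HSP47, had 6252, 6789, 6139.8 and 6150.4 in the controls against 9492, 6678, 11278 and 10302 in the knockouts. Knockout replicate 6 lay among the controls and the other 3 knockouts above them, and the log2 difference was 0.55 ± 0.14 (SE, n = 4 against 4; limma, adjusted p = 0.0796). Crtap, part of the prolyl 3-hydroxylation complex, had 840.0, 692, 617 and 629 in the controls against 1036, 940.2, 1045 and 874 in the knockouts, with every knockout above every control and a log2 difference of 0.49 ± 0.13 (SE, n = 4 against 4; limma, adjusted p = 0.0796). P3h2, a prolyl 3-hydroxylase that acts on type IV chains, had a lower estimate. It had 106, 64.3, 224 and 160.2 in the controls against 46.5, 52.9, 53.2 and 33 in the knockouts, every knockout below every control, and a log2 difference of -1.44 ± 0.36 (SE, n = 4 against 4; limma, adjusted p = 0.0796). Its controls were spread over a wide range, with replicates 3 and 4 highest, and without these 2 libraries the log2 difference was -0.84 (limma, adjusted p = 0.623).

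For the removal of propeptides and cross-linking, 8 of 12 tested genes (of 13 listed) had higher estimates, with a median log2 difference of 0.18, and none passed. Pcolce, which speeds the removal of the C-propeptide, had 4647, 3539, 3406 and 3665 in the controls against 6183, 4014, 6816 and 4966 in the knockouts, with a log2 difference of 0.51 ± 0.16 (SE, n = 4 against 4; limma, adjusted p = 0.0866). Its relative Pcolce2 had a log2 difference of 0.44 ± 0.15 (SE, n = 4 against 4; limma, adjusted p = 0.0918), or 0.26 without control replicates 3 and 4. Bmp1, the protease that removes the C-propeptide, had 1441, 1481, 1482 and 1513 in the controls against 1902, 1521, 2344 and 1912 in the knockouts. All 4 Bmp1 values in knockouts were above the controls, the lowest by little, and its log2 difference was 0.36 ± 0.13 (SE, n = 4 against 4; limma, adjusted p = 0.108). The cross-linking enzyme Lox, chosen after its value was seen, had a log2 difference of -0.00398 ± 0.16 (SE).

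Receptors for collagen had mostly lower estimates: 1 of 9 tested genes (of 10 listed) had higher estimates, with a median log2 difference of -0.20, and none passed. Mrc2, the endocytic receptor that takes up collagen for breakdown, was the exception, with 1051, 926, 999.5 and 948 in the controls against 1423, 997, 1449 and 1541 in the knockouts and a log2 difference of 0.44 ± 0.14 (SE, n = 4 against 4; limma, adjusted p = 0.0867). The integrin chains Itga11 and Itga1 had log2 differences of -0.32 ± 0.19 and -0.20 ± 0.15 (SE; limma, adjusted p = 0.306 and 0.388). Without control replicates 3 and 4 they were -0.072 and -0.01. That of Itga1 was 0.063 with the length and GC trend removed.

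In the list of collagen breakdown, 10 of 13 tested genes (of 15 listed) had higher estimates, with a median log2 difference of 0.22, and none passed. Mmp14, the membrane collagenase that activates Mmp2, had 1418, 1249, 1416 and 1424 in the controls against 1973, 1501, 2179 and 2204 in the knockouts, every knockout above every control and a log2 difference of 0.50 ± 0.13 (SE, n = 4 against 4; limma, adjusted p = 0.0796). Mmp3, stromelysin, had 41.2, 53.3, 63 and 69.2 in the controls against 151, 76.1, 198 and 109 in the knockouts, with a log2 difference of 1.16 ± 0.31 (SE, n = 4 against 4; limma, adjusted p = 0.0796), also without overlap. Timp3, a matrix-bound inhibitor of metalloproteinases, had 1812, 1722, 4004 and 3579 in the controls against 1134, 1270.4, 1147 and 1069 in the knockouts, every knockout below every control and a log2 difference of -1.16 ± 0.25 (SE, n = 4 against 4; limma, adjusted p = 0.0796). Control replicates 3 and 4 held more than the other 2 controls, and without them the log2 difference of Timp3 was -0.62 (limma, adjusted p = 0.362).

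TGF-β is the main signal known to induce fibrillar collagen genes in fibroblasts. Of its list, 5 of 18 tested genes (of 18 listed) had higher estimates, with a median log2 difference of -0.07, and none passed. At an unadjusted p under 0.05 (limma), 2 were higher and 5 lower, beside 13.6% and 13.3% of all tested genes. The 2 higher genes were the ligand gene Tgfb1 and Ltbp4. Their log2 differences were 0.33 and 0.29 (limma, adjusted p = 0.169 and 0.132). The receptor gene Tgfbr2 had 2644, 2489.8, 3072 and 2994 in the controls against 2280.4, 2044, 2286 and 2315 in the knockouts, without overlap, and a log2 difference of -0.32 ± 0.11 (SE, n = 4 against 4; limma, adjusted p = 0.0948). Tgfbr1 had a log2 difference of -0.35 ± 0.14 (SE, n = 4 against 4; limma, adjusted p = 0.125). Smad3, which carries the signal to the nucleus, had 8118, 6952, 9521 and 10622 in the controls against 6651, 7205, 6978 and 6799.9 in the knockouts, with a log2 difference of -0.33 ± 0.13 (SE, n = 4 against 4; limma, adjusted p = 0.127). In controls, both Tgfbr2 and Smad3 were highest in replicates 3 and 4. Without these 2 libraries the log2 differences were -0.20 for Tgfbr2, -0.14 for Tgfbr1 and -0.12 for Smad3 (limma, adjusted p = 0.664, 0.762 and 0.767).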

How the data were processed

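Per the submitters' processing notes, the authors used cutadapt, FastQC, STAR, HTSeq and DESeq2 with GRCm38. For their versions, the annotation and the strand setting the sources used here give nothing. The authors deposited log2 values. With the log2 undone and 1 subtracted they are whole multiples of 1 step per library (100% of values up to 1000 reads within 0.1 of a whole number), as reads divided by a size factor are, which is an inference from the numbers. They are not divided by gene length.

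Testing was by limma 3.58.1 (R 4.3.3) of log2(normalized count + 1) for the 15657 genes whose mean reached 10, with trend and robust eBayes and Benjamini-Hochberg adjustment over all of them at 0.05. This scale understates the change of low genes. Replicates of a group differed far beyond sampling noise (chi-square per gene 35.4 to 265). Control replicates 1 and 2 (35.4) and 3 and 4 (85.7) were closest, against 194 to 265 across these pairs. Knockout replicates 6 and 8 (53.7) and 5 and 7 (64.3) were closest, against 96.9 to 226 across them. The SEs and p-values take the 4 libraries of a group as separate replicates and leave this pairing out. Ratios were compared with exact permutation tests.

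Members, classes, gene lists, markers and alternatives were chosen with earlier results of these data known. Named genes were the 4 of each class with the highest mean normalized count, not divided by length, members without overlap, the 2 of smallest p in each direction, the 3 of smallest p in each pathway list, and Acot2. Transcript lengths and coordinates came from GENCODE vM21 (GRCm38), promoters from RefSeq (GRCm38.p6). Alternatives were pseudocounts, filters, scalings, variance models, voom, a length and GC trend, and libraries left out.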

Additional observations from a re-analysis of the deposited data

Results flagged for a closer look

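A sample far from the other 3 of its group (a gap beyond Dixon's 95% critical value) was found in 5 of 94 groups examined, where chance alone gives about 1 in 20. The normalized count of Col1a1 in control replicate 4 was 25012 against 13935 to 14962 in the other 3 controls. That of Col6a2 in knockout replicate 6 was 5537 against 9271 to 9547 in the other 3 knockouts, and the 16 other collagens together took 0.0226% of counts there against 0.0339% to 0.0359%. Mmp14 in control replicate 2 was at 1249 against 1416 to 1424 in the other 3 controls, and Tgfbr2 in knockout replicate 6 at 2044 against 2280.4 to 2315 in the other 3 knockouts. The causes were not tested.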

How the results depend on the processing

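No collagen gene passed in 18 of 21 alternatives, and 2 (Col5a3 and Col16a1) passed with sample quality weights and without control replicate 1 or 2; with 1 library left out the count ran from 0 to 2. Over all genes, 1 passed as reported, 2 with no filter, with equal totals and without knockout replicates 6 and 8, 4 with the length and GC trend removed, 7 with plain eBayes, 1201 with sample quality weights, and 1 to 2048 with 1 library left out (1720 without control replicate 1, 2048 without control replicate 2). The median collagen difference stayed above 0 in all 21, at 0.15 to 0.42, and for fibrillar genes at 0.34 to 0.65; with the trend removed it was 0.33 and 0.65. Signs turned for estimates that were small or below their SE in size. With the trend removed these were Col12a1 (0.16) and Itga1 (0.063). Without control replicates 3 and 4 they were Col12a1 (0.19) and Col4a3 (0.31). Without knockout replicates 6 and 8 they were Col12a1 (0.25), Col4a3 (0.17), Col6a5 (0.54), Col22a1 (-0.069) and the Col15a1 to Col18a1 ratio (-0.085). With 1 library left out, estimates ran from -0.073 to 0.16 for Col4a2, -0.61 to 0.013 for Col4a3, -0.83 to 0.26 for Col6a5, -0.0139 to 0.24 for Col22a1, -0.32 to 0.00747 for Col12a1, -0.30 to 0.00485 for the Col3a1 to Col1a1 ratio and -0.031 to 0.26 for Col15a1 to Col18a1. The cause was not tested. For the chain ratios, no exact permutation p adjusted over the 6 ratios was below 0.129 in the 10 sets of libraries tried. Other count models planned for the recovered reads were not run. No paired analysis was possible because the groups share no replicate numbers.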

Other observations

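Some collagens best known from cartilage were measurable in this muscle, while Col10a1 was too low to test. Col2a1, the main fibrillar collagen of cartilage, had normalized counts of 58, 25.1, 28.2 and 19.7 in the controls against 37.8, 23.2, 84.4 and 23.2 in the knockouts. Its 2 highest values were in knockout replicate 7 and control replicate 1. The cartilage matrix gene Matn3 was at 102 in knockout replicate 7 and at 0.97 to 20.7 in the other libraries, and Sox9, a regulator of cartilage genes, was at 221, 84.4, 87.9 and 101.1 in the controls against 168, 163, 254 and 227 in the knockouts. Col2a1, Matn3 and Sox9 were chosen after their values were seen. Of the other cartilage markers, Matn1 was at 0 in all 8 libraries, Acan at 0 to 20.6 and Hapln1 at 0 to 11.

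Col13a1, a transmembrane collagen of the neuromuscular junction, had 103, 79.4, 133 and 100.47 in the controls against 132, 133, 76.1 and 123 in the knockouts, and its log2 difference was 0.15 ± 0.25 (SE, n = 4 against 4; limma, adjusted p = 0.74). Of 9 neuromuscular junction genes, 3 had higher estimates, with sums of 8209.7 to 10544 in controls and 8977 to 9523 in knockouts.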
